A study of Mus musculus with 18 samples.

Results

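A group of 6 genes that write, maintain or remove methylation on cytosine was followed in mouse embryonic stem cells (ESC), embryoid bodies and adult tissue. The genes were Dnmt1, Dnmt3a, Dnmt3b, Dnmt3l, Uhrf1 and Tet1. They were taken by name through the probe annotation of the arrays: 5 of the 6 are among the 14358 named genes with a probe shared by all arrays, and Tet1 has a probe on 1 of the 2 array products only. They had 9 probes. Of these, 5 probes (Dnmt1, Dnmt3a, Dnmt3b, Dnmt3l and Uhrf1, 1 each) lay on both products, and 4 (1 more each for Dnmt1, Dnmt3b and Uhrf1, and the only probe for Tet1) lay on the larger product alone.

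The study measured RNA on single-colour arrays from ESC, from embryoid bodies (EB, aggregates in which the cells differentiate without direction) after 3 and 7 days, and from adult mouse tissue. It holds 10 samples on 18 arrays. The ESC were of line MES3, derived from a C57BLxCBA blastocyst and kept with the cytokine LIF on mitomycin-inactivated mouse embryonic fibroblasts (MEF), so that ESC RNA may include feeder RNA. EB were made from clusters cut out of ESC colonies, in low-adhesion plates, in the same medium without LIF and b-mercaptoethanol. All ESC and EB samples came from this 1 line, and the labels do not say that replicates were separate cultures, so the spread behind each p-value is that between samples and may be technical. For adult tissue the labels give no organ, age, sex or strain.

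On the UniSet 20K product there was 1 ESC sample (replicate 1), with 2 samples of each EB age (replicates 1 and 2) and 2 of adult tissue (replicates 1 and 2). The Whole Genome product had 1 ESC sample (replicate 2) and 1 sample of each EB age (replicate 3), with no adult tissue. Adult samples were hybridised to 1 array and all others to 2. Between 27.7% and 36.2% of gene probes were above background on the UniSet ESC and EB arrays, against 52.6% to 57.8% on the adult arrays and 60.3% to 71.7% on the Whole Genome arrays, so the number of arrays and the weak signal of the UniSet ESC and EB arrays limit the precision. All UniSet ESC and EB arrays shared a scan date and the adult arrays another, so adult tissue and scan date cannot be told apart. On the Whole Genome product 7-day EB replicate 3 was scanned on a date of its own, and there 7 days and scan date cannot be told apart. Of 10 pluripotent cell markers with a probe, 8 to 10 were above background on every array of each ESC and EB sample, and Fgf4 and Sox2 were below it in ESC replicate 1. In both adult samples the markers Alb (liver), Ins2 (pancreas), Snap25 (brain), Sftpc (lung) and Umod (kidney) were above background and the heart marker Myh6 was below it.

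DNA methylation in mammals is placed on CG dinucleotides by the de novo enzymes DNMT3A and DNMT3B, with the catalytically inactive DNMT3L as their cofactor in germ cells and pluripotent cells. After replication UHRF1 binds hemimethylated CG sites and recruits DNMT1, which copies the mark to the new strand. TET1 oxidises methylcytosine, the start of a route to its removal, and is abundant in pluripotent cells. Mouse ESC express both the de novo enzymes and TET1, while most adult tissues hold little DNMT3B.

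The promoters of Dnmt3a, Dnmt3b and Tet1 are shown here, the 3 genes with a probe at least 2-fold lower in 7-day EB than in ESC on the Whole Genome product, since they act on CG methylation and their own start regions differ in CG content. Each window runs from 250 bases before to 50 bases after a RefSeq start site (GRCm38.p6), 5′ to 3′ on the gene's strand, with CG dinucleotides in capitals. For Dnmt3a the outermost window and the one inside the gene are given, because the shorter isoform Dnmt3a2, the main form known in mouse ESC, is transcribed from a promoter inside the gene.
Dnmt3a, outermost window, chr12:3806730-3807029, plus strand: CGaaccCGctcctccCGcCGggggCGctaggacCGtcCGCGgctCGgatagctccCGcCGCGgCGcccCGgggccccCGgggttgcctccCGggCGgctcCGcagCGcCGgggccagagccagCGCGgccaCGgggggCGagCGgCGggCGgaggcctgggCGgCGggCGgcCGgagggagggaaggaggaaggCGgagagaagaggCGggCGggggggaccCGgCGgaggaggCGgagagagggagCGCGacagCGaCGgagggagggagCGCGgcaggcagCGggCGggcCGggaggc
Dnmt3a, inner window, chr12:3891494-3891793, plus strand: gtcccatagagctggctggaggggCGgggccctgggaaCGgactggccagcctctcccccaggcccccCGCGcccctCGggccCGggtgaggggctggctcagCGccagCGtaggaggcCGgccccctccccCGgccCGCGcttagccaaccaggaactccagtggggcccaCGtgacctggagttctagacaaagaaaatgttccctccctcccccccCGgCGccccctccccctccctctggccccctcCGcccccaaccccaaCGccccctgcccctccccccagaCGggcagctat
Dnmt3b, chr2:153649199-153649498, plus strand: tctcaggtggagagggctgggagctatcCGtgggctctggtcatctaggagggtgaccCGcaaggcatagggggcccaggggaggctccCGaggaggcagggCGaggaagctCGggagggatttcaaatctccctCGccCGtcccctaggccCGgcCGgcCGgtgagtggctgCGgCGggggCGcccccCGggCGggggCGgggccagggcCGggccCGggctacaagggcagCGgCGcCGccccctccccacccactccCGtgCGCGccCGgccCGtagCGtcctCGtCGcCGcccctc
Tet1, chr10:62887275-62887574, minus strand: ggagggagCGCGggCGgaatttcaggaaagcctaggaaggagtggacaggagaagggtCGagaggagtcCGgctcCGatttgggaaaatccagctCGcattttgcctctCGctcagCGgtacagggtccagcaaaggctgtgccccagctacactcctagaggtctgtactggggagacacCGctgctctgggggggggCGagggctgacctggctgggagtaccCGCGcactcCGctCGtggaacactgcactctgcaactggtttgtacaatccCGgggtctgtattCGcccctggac

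The outermost Dnmt3a window held 46 CG dinucleotides, more than 98.4% of all 32851 mouse windows in the same table, whose median was 7. The inner Dnmt3a window, 84764 bases further along the gene, held 18, more than 70.3% of all windows. Dnmt3b held 30 and Tet1 17. All 6 genes matched the table, with 13 windows in all. The 3 Dnmt3l windows were below the median, with 6, 4 and 3 CG dinucleotides. The 3 Dnmt1 windows held 2, 12 and 33, the first of them the poorest of the 13, and the 2 Uhrf1 windows held 12 and 33. Letters TTTCCCGC, TTTGGCGC, TTTCGCGC and TTTGCCGC, the forms of the E2F site, were searched on both strands, and a base could count toward more than one of them. At least 1 of the 4 stood in 2 of the 13 windows, against 2.26% of all windows: Dnmt1 at chr9:20952574-20952873, with TTTGGCGC and TTTCGCGC, and Uhrf1 at chr17:56304063-56304362, with TTTCGCGC. Whether these letters are bound was not tested.

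**Figure D1:**
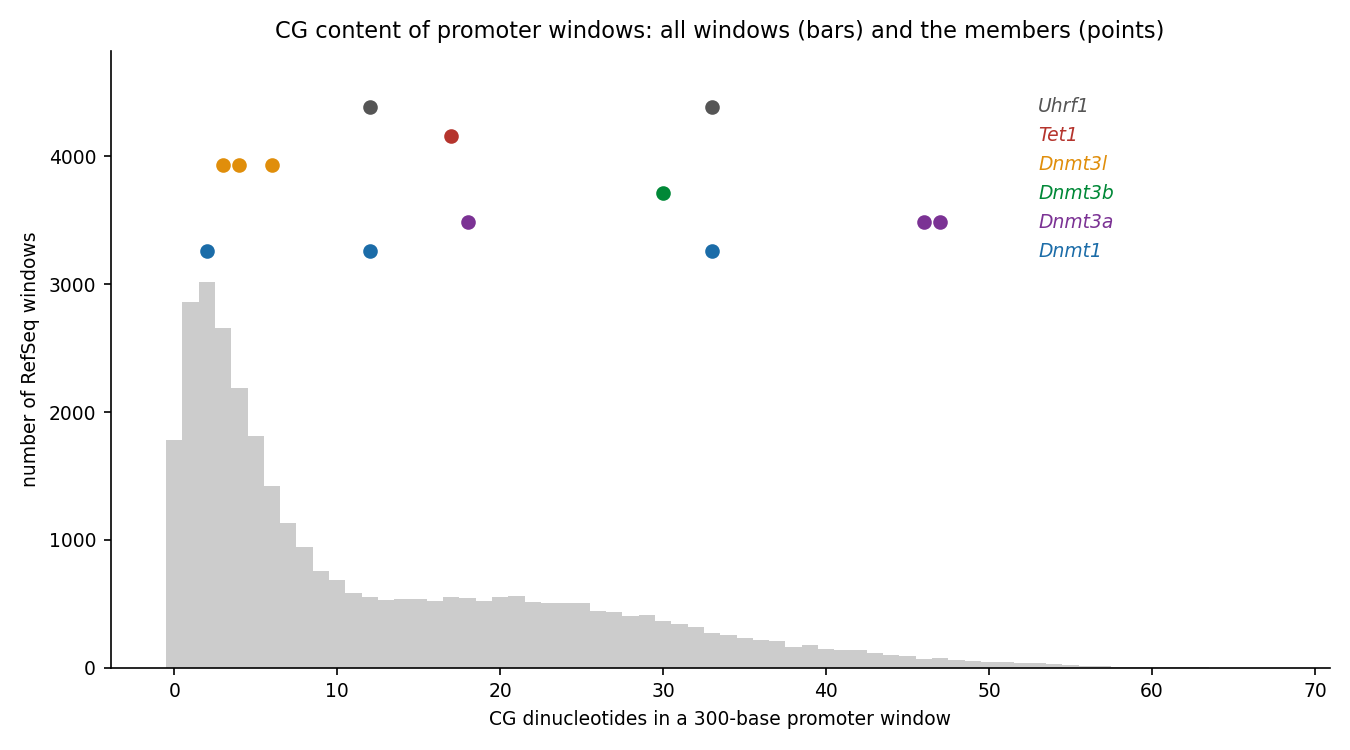
Number of RefSeq promoter windows (y axis) by their count of CG dinucleotides in 300 bases (x axis), as grey bars, with each window of the 6 genes as a point placed above the bars at its own count. Dnmt3l windows sit at 3 to 6, below the median of 7, and the outer Dnmt3a windows at 46 and 47.

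Values below are log2 intensities after quantile normalization within each product, averaged over the arrays of a sample. A level on 1 product cannot be set against a level on the other, nor 1 probe's level against another's. Differences were tested with limma on the 8 ESC and EB samples with product as a term, or on the 7 UniSet samples for adult tissue, with Benjamini-Hochberg adjustment over all genes tested, and a gene was called at an adjusted p under 0.05. A probe entered a test only if it was above background on every array of at least 1 group. Dnmt3a, Dnmt3b and Uhrf1 did so; Dnmt1 and Dnmt3l were too dim on UniSet 20K and Tet1 has no probe there, so these 3 were not tested.

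Of the 3 tested members, Dnmt3a was the one called lower in EB, in 7-day EB. Dnmt3a (chr12:3801559-3914443, GRCm38.p6), a de novo methyltransferase, had its highest level in ESC on both products and was lower in each EB sample. On UniSet 20K it stood at 6.54 in ESC replicate 1, at 5.42 and 5.35 in 3-day EB and at 4.57 and 5.15 in 7-day EB. On the Whole Genome product it stood at 11.83 in ESC replicate 2, 9.82 in 3-day EB replicate 3 and 8.65 in 7-day EB replicate 3. The order was ESC, 3-day EB, 7-day EB on both products, and no EB sample overlapped ESC. The lower 3-day sample and the higher 7-day sample on UniSet 20K were closer to each other than the SD of the 7-day samples, 0.41 (n = 2).

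Dnmt3a fell by 2.32 ± 0.34 (SE) on the log2 scale from ESC to 7-day EB, a 5.01-fold fall with a 95% interval of -3.11 to -1.54 (limma adjusted p = 0.0115). The difference was -1.68 on UniSet 20K and -3.18 on the Whole Genome product, where the scan date also differed. In 3-day EB the difference from ESC was -1.59 ± 0.34 and did not pass (limma adjusted p = 0.0522). The difference between 7-day and 3-day EB was -0.74 ± 0.30 (limma adjusted p = 0.319). Raw intensities on UniSet 20K moved the same way, from 56.3 in ESC to 22.3 and 25.5 in 3-day EB. In 7-day EB they were 19.4 and 25.6. The probe was above background there on 3 of 4 3-day arrays and on every ESC and 7-day array. The 7-day call was lost without 7-day EB replicate 3 (-1.92, limma adjusted p = 0.0534). Scan date as a block gave the same values and is no separate check, since that sample alone held its scan date. The call was also lost without ESC replicate 2 (-1.79) and on UniSet 20K alone (-1.68), where 1 ESC sample was left. With replicate number as a block it was lost as well (-1.92, limma adjusted p = 0.0613). Replicate 2 is ESC on the Whole Genome product but EB on UniSet 20K, so this block joins samples of different products. The 3-day difference passed without 7-day EB replicate 2 (-1.56, limma adjusted p = 0.0272), under median centring (limma adjusted p = 0.0438) and with the authors' normalized intensity (limma adjusted p = 0.0423). The last 2 settings gave almost the same values and are hardly separate checks. Relative to the all-gene median the 7-day difference from ESC was -2.27 in both.

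Feeder RNA moved in the same direction as Dnmt3a. Of 17 feeder fibroblast markers tested, 8 fell from ESC to 3-day EB and 9 to 7-day EB, where 2.15% and 3.34% of all genes fell, with medians of -3.37 and -3.06 against 0.05 and 0.04 over all genes. The summed normalized intensity of 19 feeder markers was 6544 in ESC replicate 1 against 1845 to 3491 in the UniSet EB samples, and 40976 in ESC replicate 2 against 12776 and 16564 in the Whole Genome EB samples. On the 3-day and 7-day arrays 0 to 16 of the 19 were below background on all arrays of a sample, among them Col1a1 and Col1a2 in 3 of the 4 UniSet EB samples. In these bulk samples fewer cells of a type and less RNA per cell cannot be told apart. Of 9 pluripotent markers tested, 0 fell in either comparison, and 1, Sall4, rose in 7-day EB. Extraembryonic endoderm markers summed to 195 in ESC replicate 1 against 182 to 1288 in the UniSet EB samples, and to 1821 against 6195 and 13560 on the Whole Genome product. The part of feeder or endoderm RNA in the Dnmt3a difference was not tested.

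**Figure D2:**
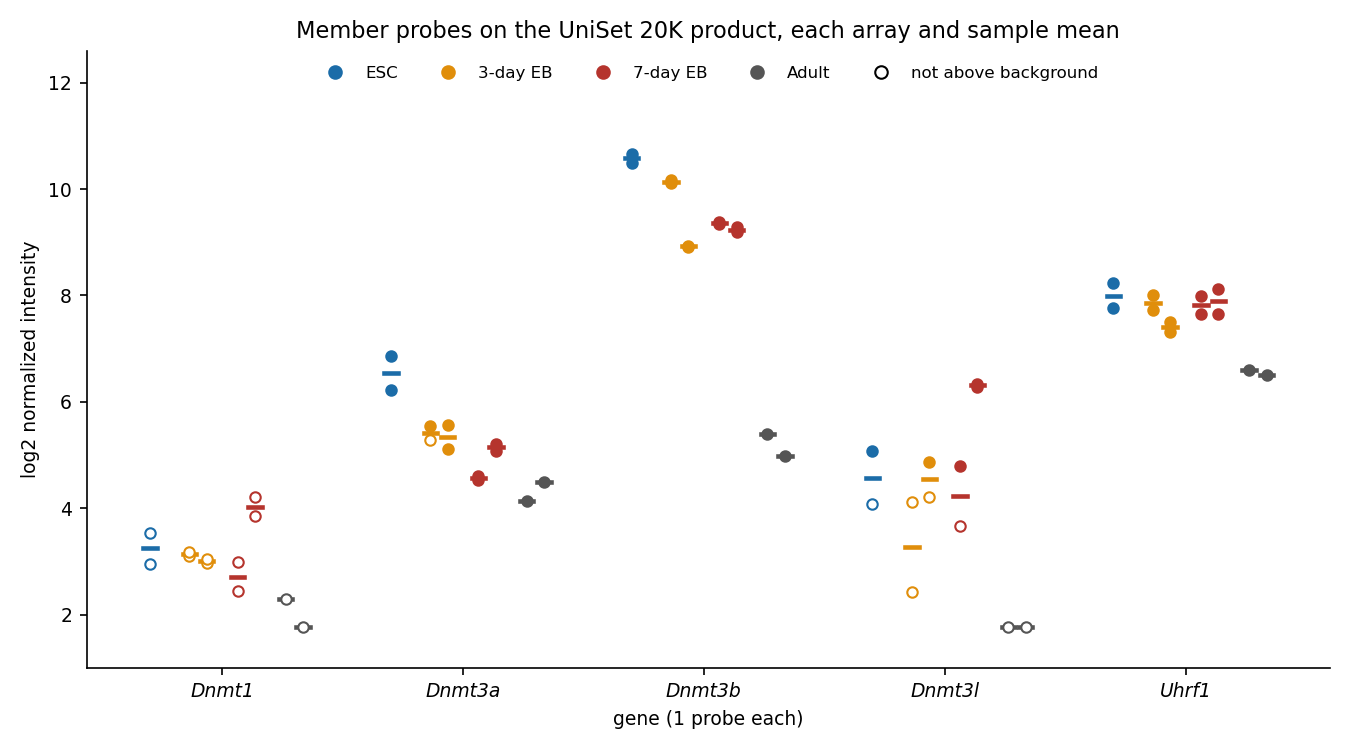
Log2 normalized intensity (y axis) of the 5 genes with a probe on UniSet 20K (x axis), with each array as a circle, filled if the spot was above background and open if not, and each sample mean as a bar, coloured by group. Dnmt3b is 8.93 or higher in every ESC and EB sample and 5.40 or lower in adult tissue; Dnmt1 has open circles throughout.

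Dnmt3b (chr2:153649411-153687730), the other de novo methyltransferase, was high in ESC and EB and low in adult tissue. On UniSet 20K it stood at 10.58 in ESC, at 10.14 and 8.93 in 3-day EB, at 9.36 and 9.24 in 7-day EB and at 5.40 and 4.97 in adult tissue. On the Whole Genome product the same probe stood at 13.25, 12.46 and 11.85 in ESC, 3-day and 7-day EB. All EB samples lay below ESC of their product, while the 3-day and 7-day samples overlapped on UniSet 20K. The differences from ESC were -0.95 ± 0.34 at 3 days (limma adjusted p = 0.182) and -1.31 ± 0.34 at 7 days (limma adjusted p = 0.068), and neither passed. The second Dnmt3b probe, designed on an EST, read 7.12 in ESC, 6.06 in 3-day EB and 6.27 in 7-day EB on the Whole Genome product. It too was lower in both EB samples than in ESC, but its lowest value was at 3 days, where that of the other probe was at 7 days. Without 3-day EB replicate 2 the 7-day difference of Dnmt3b passed (-1.35, limma adjusted p = 0.0122), so that 2 of 3 members were then called.

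Dnmt3l (chr10:78042287-78063622), the cofactor without catalytic activity, gave no common direction on the 2 products. On UniSet 20K it stood at 4.58 in ESC, at 3.27 and 4.54 in 3-day EB and at 4.22 and 6.31 in 7-day EB, and its probe was above background on 1 of 2, 1 of 4 and 3 of 4 arrays of these groups. Of the 7-day replicates one was below and one above ESC, so ESC and 7-day EB overlapped. On the Whole Genome product, above background on every array, it stood at 10.69 in ESC, 10.99 in 3-day EB and 10.35 in 7-day EB. Those 3 values span 0.63, while the 2 arrays of ESC replicate 2 alone read 10.97 and 10.40. Dnmt3l was below background in both adult samples, at the floor of 1.77.

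Dnmt1 (chr9:20907206-20959888), the maintenance methyltransferase, was measurable on the Whole Genome product alone. There its 2 probes gave the same order, with 7-day EB highest and 3-day EB lowest. The first probe read 11.01 in ESC, 10.28 in 3-day EB and 11.73 in 7-day EB; the second read 8.06, 6.80 and 8.67. The difference of 7-day from 3-day EB was 2.73-fold by the first probe and 3.66-fold by the second, with no test. Both probes were read on the same arrays, from 1 sample each, and the scan dates of these 2 samples differed. The 2 arrays of ESC replicate 2 read 11.38 and 10.63 by the first probe, so ESC overlapped 3-day EB, whose arrays read 10.67 and 9.89. By the second probe the same ESC arrays read 8.50 and 7.61, both between the EB groups. On UniSet 20K the shared probe was below background on all 12 arrays, so no direction was drawn from it.

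Uhrf1 (chr17:56303337-56323486), the reader of hemimethylated CG that brings DNMT1 to newly copied DNA, had the smallest estimates of the 3 tested members in the comparisons of ESC and EB. On UniSet 20K it stood at 7.998 in ESC, at 7.87 and 7.41 in 3-day EB and at 7.82 and 7.89 in 7-day EB. On the Whole Genome product the shared probe read 10.92, 10.10 and 10.12, and the other probe read 11.32, 10.09 and 10.57, for ESC, 3-day and 7-day EB. Both probes put ESC highest after normalization. In raw intensity on UniSet 20K the 7-day EB samples, at 158 and 160, stood slightly above ESC, at 153. The differences from ESC did not pass, at -0.58 ± 0.23 for 3 days (limma adjusted p = 0.229) and -0.43 ± 0.23 for 7 days (limma adjusted p = 0.312), the latter with an interval of -0.96 to 0.10.

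Tet1 (chr10:62804570-62887469), the oxidase of methylcytosine, was lower in both EB samples of the Whole Genome product, the only one with a probe. It read 10.24 in ESC replicate 2, 8.50 in 3-day EB replicate 3 and 7.65 in 7-day EB replicate 3. The 2 arrays of each sample did not overlap those of another: 9.92 and 10.56 in ESC, 8.50 and 8.50 in 3-day EB, and 7.57 and 7.73 in 7-day EB. The fold below ESC was 3.34 at 3 days and 6.03 at 7 days, from 1 sample a group and without a replicate check. At 7 days the scan date also differed from that of ESC. Dnmt3a on the same arrays was 4.03-fold and 9.09-fold below ESC.

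**Figure D3:**
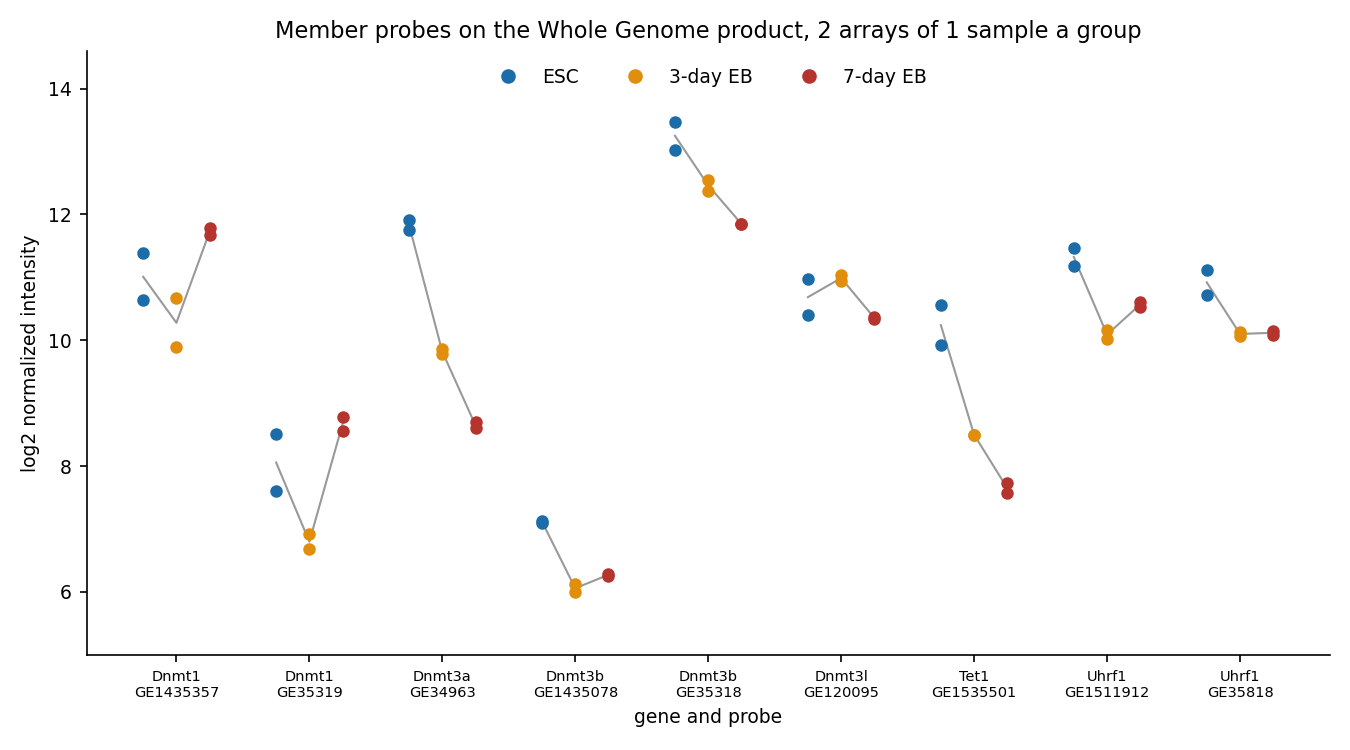
Log2 normalized intensity (y axis) of the 9 probes on the Whole Genome product (x axis), with the 2 arrays of the 1 sample of each group as points and a grey line through the sample means. Dnmt3a and Tet1 descend from ESC through 3-day to 7-day EB, from 11.83 to 8.65 and from 10.24 to 7.65, and both Dnmt1 probes are lowest in 3-day EB.

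Counted over the tested members, 0 of 3 passed in 3-day EB against ESC, where 2.8% of 6289 genes did, and 1 of 3, Dnmt3a, passed in 7-day EB against ESC, where 5.15% did and 3.34% did in the lower direction. In 7-day against 3-day EB 0 of 3 passed, against 0.111% of genes, and 927 genes had an unadjusted p under 0.05 in limma, Dnmt3a among them at an unadjusted limma p of 0.0401. Of the genes called in 7-day EB 114 were higher and 210 lower, a split that became 68 and 212 under median centring. On the Whole Genome product, with no test, 5 of the 9 member probes were at least 2-fold lower in 3-day EB than in ESC, against 8.9% of probes there: those of Dnmt3a and Tet1, the second probes of Dnmt1 and Dnmt3b and the Uhrf1 probe found on that product alone. In 7-day EB 3 of 9 were, against 9.56%: those of Dnmt3a and Tet1 and the first Dnmt3b probe. From 3-day to 7-day EB both Dnmt1 probes were at least 2-fold higher, against 8.25% of probes, and the Dnmt3a probe at least 2-fold lower, against 6.81%.

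Against adult tissue Dnmt3b had the largest difference of the 3 tested members. It was 42.1-fold higher in ESC (5.39 ± 0.50, limma adjusted p = 0.000209), 20.3-fold higher in 3-day EB (4.35 ± 0.41, limma adjusted p = 0.000119) and 17.3-fold higher in 7-day EB (4.11 ± 0.41, limma adjusted p = 0.00014). All 5 ESC and EB samples were above both adult samples. In raw intensity the ratio was 9.64 in ESC, 4.64 in 3-day EB and 4.03 in 7-day EB, since the adult arrays were brighter throughout, with median raw intensities of 22.1 to 29.9 against 6.99 to 10.9.

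Dnmt3a at 4.14 and 4.49 in adult tissue was lower than in every ESC and EB sample. The difference was 2.23 ± 0.35 for ESC (limma adjusted p = 0.00189), 1.07 ± 0.29 for 3-day EB (limma adjusted p = 0.0142) and 0.55 ± 0.29 for 7-day EB, the last not past the threshold (limma adjusted p = 0.136). The lower 7-day sample, at 4.57, was next to the higher adult sample, at 4.49. Under median centring the 3-day call was lost (0.56, limma adjusted p = 0.141), as it was without 3-day EB replicate 1 (1.03, limma adjusted p = 0.055) or adult replicate 1 (0.89, limma adjusted p = 0.0805). Raw intensity in adult tissue, 51.0 and 52.3, was near that of ESC, at 56.3, and above every EB sample.

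Uhrf1 at 6.59 and 6.50 in adult tissue was below every ESC and EB sample after quantile normalization, by 1.45 ± 0.31 in ESC (limma adjusted p = 0.00741), 1.09 ± 0.26 in 3-day EB (limma adjusted p = 0.00799) and 1.31 ± 0.26 in 7-day EB (limma adjusted p = 0.00348). These calls depended on the scaling: under median centring the differences were 0.88, 0.35 and 0.57 with limma adjusted p of 0.0809, 0.352 and 0.139, and in raw intensity the adult samples, at 308 and 245, were brighter than all ESC and EB samples, at 92.6 to 160. Without 3-day EB replicate 1 the 3-day call of Uhrf1 was lost too (0.86, limma adjusted p = 0.051).

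Dnmt3l was below background in both adult samples and above it on 1 of 2 ESC arrays, 1 of 4 3-day arrays and 3 of 4 7-day arrays, both arrays of 7-day EB replicate 2 among them. No fold is given for it, since each of those groups also had arrays below background. Dnmt1 was below background on both sides and Tet1 has no probe there.

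**Figure D4:**
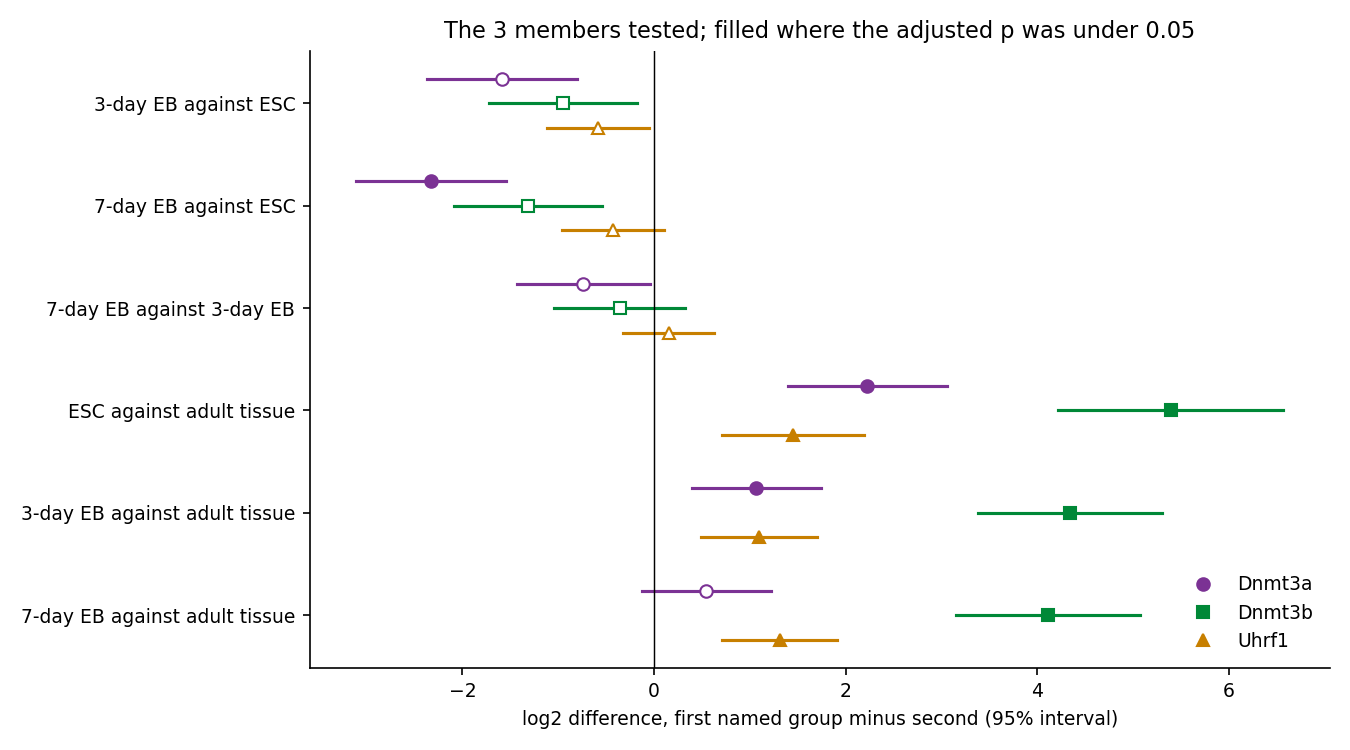
Log2 difference of the first named group minus the second (x axis) for the 3 members tested in each of 6 comparisons (y axis), with the limma estimate as a symbol and its 95% interval as a line. Filled symbols passed at an adjusted p under 0.05; Dnmt3b lies between 4.11 and 5.39 in the comparisons with adult tissue, and Dnmt3a is the 1 filled symbol among the comparisons of ESC and EB.

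In each comparison with adult tissue a large share of all genes passed. All 3 tested members passed as higher in ESC, where 51.8% of 10080 genes passed and 25.1% as higher. All 3 did in 3-day EB, where 61.9% passed and 30.5% as higher, and 2 of 3 in 7-day EB, where 61.6% passed and 29.4% as higher. The genes called split into 2535 higher and 2684 lower in ESC, 3071 and 3171 in 3-day EB and 2965 and 3244 in 7-day EB. Under median centring the splits were 1774 and 3288, 1983 and 4145, and 2009 and 4108, and the median over all genes moved from 0.04, -0.00338 and -0.03 to -0.36, -0.48 and -0.49. Relative to the all-gene median, Dnmt3b differed by 5.35, 4.35 and 4.15 under quantile normalization and by 5.40, 4.29 and 3.93 under median centring, the largest of the 3 members in each.

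In 5 of the 6 pathway lists no tested gene passed between ESC and EB, where 2.8% of all genes passed at 3 days and 5.15% at 7 days. Among partners and regulators of the methyltransferases 0 of 15 tested genes passed at either time, with medians of -0.20 at 3 days and 0.17 at 7 days and single genes between -0.97 and 1.36 at 3 days. In 4 genes of active and oxidative demethylation 0 passed at either time (medians 0.14 and -0.35). The same held for 3 genes listed as readers of methylated CG (-0.67 and -0.21) and 5 genes of methyl donor supply (-0.09 and -0.05). It also held for 12 S phase genes (-0.18 and 0.01). The widest estimates in these were 1.58 in methyl donor supply and -1.17 in demethylation, both at 7 days. The median over all genes was 0.05 at 3 days and 0.04 at 7 days.

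Of the 6 pathway lists, germline genes known to be silenced by DNA methylation had calls against ESC, in opposite directions: 1 of 5 at 3 days and 2 of 5 at 7 days, beside 2.8% and 5.15% of all genes. Of the 5 tested, Rhox5, a homeobox gene of the X-linked Rhox cluster, was higher at both times and Hormad1, a meiotic chromosome axis gene, was lower at 7 days. Rhox5 stood at 5.43 in ESC replicate 1, at 7.76 and 7.24 in 3-day EB and at 8.59 and 9.33 in 7-day EB on UniSet 20K, and at 9.16, 11.38 and 11.90 on the Whole Genome product. Every EB sample was above ESC of its product. Rhox5 was higher by 2.08 ± 0.33 at 3 days (limma adjusted p = 0.0194) and by 3.23 ± 0.33 at 7 days (limma adjusted p = 0.00372). Hormad1 stood at 5.56 in ESC replicate 1, 3.87 and 4.58 in 3-day EB and 3.59 and 4.60 in 7-day EB, and at 9.11, 7.40 and 6.44 on the Whole Genome product. It fell by 1.96 ± 0.40 at 7 days (limma adjusted p = 0.0345). Its UniSet EB values were dim: on that product Dnmt3l spots at 3.66 and 4.20 were not above background. The filter asked for detection in 1 group only, so the size of the Hormad1 fall is uncertain. Calls of list genes were not tried without single replicates. The remaining 3 tested genes did not pass, and the list's median was 0.22 at 3 days and -0.41 at 7 days.

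Against adult tissue the S phase genes and the partners of the methyltransferases were mostly higher, where 25.1%, 30.5% and 29.4% of all genes were called higher in ESC, 3-day EB and 7-day EB. Of 12 S phase genes 10, 10 and 11 were called higher in ESC, 3-day EB and 7-day EB, with medians of 3.78, 3.93 and 4.38, and 8, 9 and 9 under median centring. Mcm5, a subunit of the replicative helicase, differed by 5.45 ± 0.33 in ESC (limma adjusted p = 3.73e-05). Of 16 partners and regulators 13, 13 and 15 were higher, or 10 in each under median centring, and 1, the histone methyltransferase gene Suv39h2, was lower. Dppa3, whose product is known to hold UHRF1 off chromatin in the early embryo, was higher by 6.33 ± 0.46 in 7-day EB (limma adjusted p = 4.05e-05). The histone deacetylase gene Hdac2 was higher by 3.29 ± 0.29 in ESC (limma adjusted p = 0.000178).

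In the comparisons with adult tissue 25.1%, 30.5% and 29.4% of all genes were called higher in ESC, 3-day EB and 7-day EB. Called lower were 2684, 3171 and 3244 of 10080. Of the genes listed as readers of methylated CG, Mbd1 and Mbd2 were called lower and Mbd3 alone was called higher. Of 4 tested, Mbd3, a subunit of the NuRD complex, was higher by 1.82 ± 0.37 in ESC (limma adjusted p = 0.00574), and Mbd1 and Mbd2 were lower, at -0.89 ± 0.31 and -1.44 ± 0.47 (limma adjusted p = 0.0455 and 0.0378), with the same counts of 1 higher and 2 lower under median centring. Among 5 demethylation genes 4 were higher in each comparison, or 3, 3 and 2 under median centring, among them Tdg, the glycosylase that removes oxidised methylcytosine, by 2.26 ± 0.28 in ESC (limma adjusted p = 0.000733). Methyl donor genes had 3, 3 and 4 of 6 higher, with Shmt1, a serine hydroxymethyltransferase, at 3.51 ± 0.50 in ESC (limma adjusted p = 0.0012), and 1 lower, Ahcyl1. Under median centring 2, 3 and 4 were higher and 1, 1 and 0 lower. The germline genes split into 4 higher and 3 lower in ESC, of 8 tested, or 3 and 3 under median centring. Rhox5 was 6.06 ± 0.55 higher in 7-day EB (limma adjusted p = 9.24e-05), and Ddx4, a germ cell helicase, differed by -2.45 ± 0.54 in ESC (limma adjusted p = 0.00781).

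**Figure D5:**
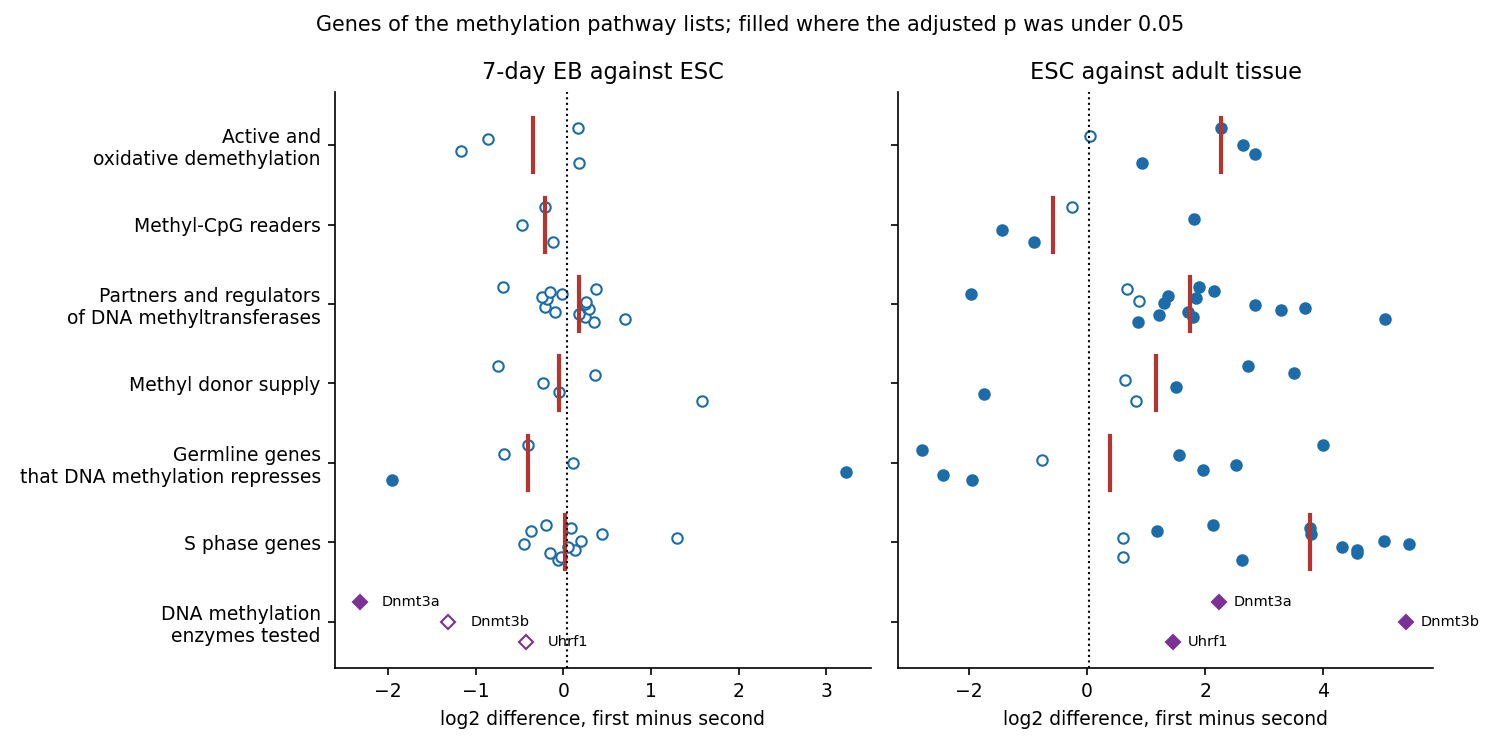
Log2 difference (x axis) of each tested gene of the 6 pathway lists (y axis), for 7-day EB against ESC (left) and ESC against adult tissue (right), with filled circles past an adjusted p under 0.05, red bars for list medians, diamonds for the members and a dotted line at the median over all genes. On the left 2 list genes are filled, Rhox5 at 3.23 and Hormad1 at -1.96; on the right S phase genes have a median of 3.78.

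Over the 8 ESC and EB samples, with each product's mean taken out, the Pearson correlation was 0.813 between Dnmt3a and Dnmt3b, 0.741 between Dnmt3a and Uhrf1 and 0.768 between Dnmt3b and Uhrf1. These points share 2 products, and the 2 ESC samples lie at the high end for all 3 genes. The genes most alike to Dnmt3a were H13, Taf5 and Adam23, at r of 0.992, 0.987 and 0.985, and 130 of 5686 genes exceeded 0.9. For Dnmt3b they were Tkfc, Cenpk and Mcfd2, at 0.996, 0.985 and 0.971, with 43 genes over 0.9. For Uhrf1 they were Tysnd1, Cdk16 and Foxd3, at 0.984, 0.972 and 0.972, with 17 over 0.9.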

How the data were processed

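RNA was measured on single-colour arrays of 2 products. The authors deposited scanner exports with spot intensity and quality marks for each spot (scanner software 4.1.0.29054). Spot intensity was taken as already corrected for background, judged from the file headers and the values. The method of the correction is not given in the sources used here. Tables of normalized values deposited beside the exports were not used here.

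Masked, contaminated and irregular spots were left out. Raw intensity was quantile normalized within each product on the 19758 probes shared by both, with Whole Genome probes outside that set read off each array's normalization curve, floored at the median negative control (3.42 on UniSet 20K, 5.24 on Whole Genome), and put on the log2 scale, and arrays of a sample were averaged. Probes had to be above background on every array of at least 1 group, and a gene with several was represented by its brightest on average. Groups were compared with limma 3.58.1 in R 4.3.3, with product as a term in the ESC and EB fit and an adjusted p threshold of 0.05. The fits were also run on simulated data in which few genes changed. That run does not bear on scaling, the floor or scan date, nor on comparisons where most genes differ.

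Of the shared probes 15836 had 1 gene symbol, 63 several and 3859 none. Adult tissue was compared on UniSet 20K alone. Named genes were the 6 members, up to 4 members past the threshold in each list by adjusted p, and the 3 genes most correlated with each tested member; Hormad1, Suv39h2, Ahcyl1 and Sall4 are named after their values were seen. The members and lists were chosen with earlier results of these data known. Alternatives were median centring, the authors' normalized intensity, no floor, no filter, every probe tested on its own, normalization on all gene probes, replicate and scan date blocks, UniSet 20K alone and leaving out each replicate. Sequences are from RefSeq, GRCm38.p6.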

Additional observations from a re-analysis of the deposited data

How the results depend on the processing

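Counts of genes called against ESC were 176 at 3 days and 324 at 7 days, and 7 between 7 and 3 days. With the replicate block they were 67, 151 and 12, with 0 members called at 7 days (Dnmt3a -1.92, limma adjusted p = 0.0613). Replicate numbers mark no shared culture in the labels, and replicate 2 is ESC on the Whole Genome product but EB on UniSet 20K. Deviations of same-numbered samples correlated at 0.229 across genes between 3-day and 7-day EB. With adult tissue they correlated at 0.0263 and 0.0565. Adult tissue cannot share a culture with EB, so those values do not bear on whether EB samples were paired. The block left every member call against adult tissue in place. With scan date as a block 86 genes and 0 members were called at 7 days against ESC and 0 genes between 7 and 3 days (Dnmt3a -1.92, limma adjusted p = 0.0534). Since 7-day EB replicate 3 alone held its scan date, this block repeats the fit without that sample and is no separate check. On UniSet 20K alone the counts were 0, 1 and 0, with 0 members at 7 days; fewer samples were then fitted. Without the filter on dim probes they were 79, 141 and 0, and 4 members were called in 7-day EB against adult tissue. Median centring, the authors' normalized intensity, no floor, normalization on all gene probes and every probe on its own each left 0 genes between 7 and 3 days. Median centring and the authors' intensity each called 1 member at 3 days against ESC (Dnmt3a) and 1 in each EB comparison with adult tissue (Dnmt3b). These 2 settings gave almost the same values, so they are hardly separate checks. Leaving out 1 replicate gave 1 to 301 genes at 3 days, 23 to 495 at 7 days and 0 to 180 between them, with 0 to 1 members at 3 days and 0 to 2 at 7 days, and 1 to 4 members in 3-day EB against adult tissue. The lowest counts came without ESC replicate 2 and the highest without 7-day EB replicate 2. The cause of these shifts was not tested. No difference of Dnmt3a, Dnmt3b or Uhrf1 changed direction under these alternatives. In unscaled intensity, however, Uhrf1 was higher in adult tissue than in ESC or EB, and Dnmt3a than in EB. Unscaled Uhrf1 on UniSet 20K was also slightly higher in 7-day EB (158 and 160) than in ESC (153). The scan date block could not be fitted for adult tissue, and leaving out ESC replicate 1 gives no ESC value there. Dim signal on UniSet 20K limits Dnmt1 and Dnmt3l.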
